A study of Mus musculus with 4 samples.

Results

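The genes of miR-135, miR-130 and miR-301 form 2 seed families: Mir135a-1, Mir135a-2 and Mir135b in one, and Mir130a, Mir130b, Mir301 and Mir301b in the other. They were followed in AGO2 eCLIP of mouse brain, in which AGO2 is crosslinked to RNA, immunoprecipitated (IP) and the attached RNA sequenced beside a size-matched input. The regions taken were those that overlap one of the 7 genes by 1 base or more on the same strand, out of 2207 annotated miRNA genes. They numbered 18 of 86106 clusters in the knockout-labelled IP, 19 of 46860 in the wild-type IP and 19 of 46862 regions in the deposited comparison of both IPs. All 7 genes had clusters in both libraries.

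The groups are whole brain of C57BL/6 mice at P0 with the genotype FMR1 ko, and the same tissue, strain and age with the genotype wild type. Each genotype had 1 IP and 1 input library, made with the antibody EAG009, and the labels give neither the allele of the knockout nor how many brains entered a library. FMR1 encodes FMRP, an RNA-binding repressor of translation in neurons. With 1 library per genotype there is no replicate check, so each difference below is one between libraries, and intervals (exact Clopper-Pearson, 95%) cover counting error only.

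A miRNA is cut from a hairpin, and one of its arms is loaded into an Argonaute protein such as AGO2. The seed, bases 2 to 8 of the mature strand, pairs with matching sites that lie mostly in the 3' UTRs of mRNAs, which are then destabilised or translated less. miR-135 has been studied in mouse serotonin neurons, where it represses the serotonin transporter and an autoreceptor, and the miR-130/miR-301 family is known for targets in TGF-beta and lipid pathways.

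The mature strands are shown because the seed sorts the genes into families and because 2 genes give the same strand. They are from RefSeq (build GRCm38.p6), which matched 7 of 7 hairpins and held 12 mature entries for them, with the seed in capitals, 5' to 3'. miR-135b-5p and miR-301b-3p are named only.
miR-135a-5p: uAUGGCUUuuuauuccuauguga
miR-130a-3p: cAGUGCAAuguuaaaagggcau
miR-130b-3p: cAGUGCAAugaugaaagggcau
miR-301a-3p: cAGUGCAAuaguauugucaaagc
miR-135a-1-3p: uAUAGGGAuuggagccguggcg

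miR-135a-5p is encoded identically by Mir135a-1 (chr9:106154124-106154213, plus strand) and Mir135a-2 (chr10:92072086-92072185, minus strand). The longest run shared by these hairpins is 24 bases and holds the whole strand of 23 bases. The strands miR-130a-3p and miR-130b-3p carry the same base at 20 of 22 positions, and miR-130a-3p and miR-301a-3p share their first 9 bases. The last sequence is the opposite arm of Mir135a-1, whose seed belongs to neither family and which is shown because it carried a cluster of its own.

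In the annotation, 6 of the 7 genes lie in an intron of a longer gene on the same strand. Mir135b is at chr1:132198088-132198184 (plus strand), inside Lemd1 and AC124108.1. Mir301 is at chr11:87113004-87113089 (plus strand), inside Ska2, which encodes a spindle and kinetochore protein. Mir130b (chr16:17124061-17124142) and Mir301b (chr16:17124400-17124496) lie on the minus strand inside 2610318N02Rik, 257 bases apart. Mir135a-1 lies in the antisense gene D030055H07Rik and Mir135a-2 in Rmst, a non-coding RNA of neural tissue. Mir130a (chr2:84741115-84741178, minus strand) has no such gene around it.

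The files give the authors' -log10 p (at most 400) and log2 per region, from which read counts were recovered. The recovered depths show inputs deeper than their IPs by 1.92 times in the knockout-labelled pair and 6.34 times in the wild-type pair, and a knockout-labelled IP deeper than the wild-type IP by 2.28 times. Fmr1 itself had 5 clusters of 3 to 11 reads in the knockout-labelled IP and 2 of 4 to 5 reads in the wild-type IP, none enriched. As the allele is not given, these reads do not check the genotype label. Neuronal markers had clusters for 8 of 8 genes in both IPs and neural progenitor markers for 6 of 6. Microglial markers had clusters for 2 of 4 genes in the knockout-labelled IP and 1 of 4 in the wild-type IP, endothelial markers for 4 of 4 and 2 of 4, and erythroid markers for 4 of 4 and 3 of 4. Astrocyte and oligodendrocyte markers each had 4 of 4 and 3 of 4, and choroid plexus markers 1 of 2 in both. Any cluster counts here, and the knockout-labelled IP had 86106 clusters against 46860. The counts thus do not compare cell content between libraries. In whole brain, fewer cells that express a miRNA and less miRNA per cell cannot be told apart.

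Mir301, Mir135a-2 and Mir135b held most of the reads of the 7 genes in both libraries. Mir301, source of miR-301a, had 728 reads in the knockout-labelled IP and 908 in the wild-type IP, as the smallest whole numbers that fit both of its ratios. Mir135a-2 had 727 reads in the knockout-labelled IP and 797 in the wild-type IP. Mir135b had 736 and 753 reads in the same order. Each of these 3 genes had several times the reads of any other member in both IPs.

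The other members held far fewer reads. Mir135a-1 had 108 reads in the knockout-labelled IP and 112 in the wild-type IP. Mir301b had 85 in the knockout-labelled IP and 89 in the wild-type IP. Mir130a had 59 in the knockout-labelled IP and 45 in the wild-type IP, the only member with more reads in the deeper, knockout-labelled library. Mir130b had 7 in the knockout-labelled IP and 13 in the wild-type IP, the fewest of the 7 in both. In all, the 7 genes held 2450 reads in the knockout-labelled IP and 2717 in the wild-type IP.

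Against input, Mir301 and Mir135a-2 stood near the top of all miRNA genes. The log2 of IP over input of Mir301 was 10.45 in the knockout-labelled library, rank 5 of 339 miRNA genes with clusters, and 12.49 in the wild-type library, rank 6 of 312. Mir135a-2 had 10.45 (rank 6) in the knockout-labelled library and 12.30 (rank 9) in the wild-type library. Mir135b had 9.46 (rank 22) and 12.22 (rank 10) in the same order. All 3 carried the highest listed score of 400 in both libraries.

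The other members were spread over the ranks of miRNA genes. Mir135a-1 had a log2 over input of 7.69 (rank 72) in the knockout-labelled library and 9.47 (rank 78) in the wild-type library. Mir301b had 7.35 (rank 83) in the knockout-labelled library and 9.14 (rank 98) in the wild-type library. Mir130a had 6.82 (rank 111) in the knockout-labelled library and 7.16 (rank 207) in the wild-type library. Mir130b came last of the 7 in both, with 3.75 (rank 238) in the knockout-labelled library and 6.36 (rank 229) in the wild-type library. Ranks of one gene in libraries that list different numbers of genes show no change.

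**Figure D1:**
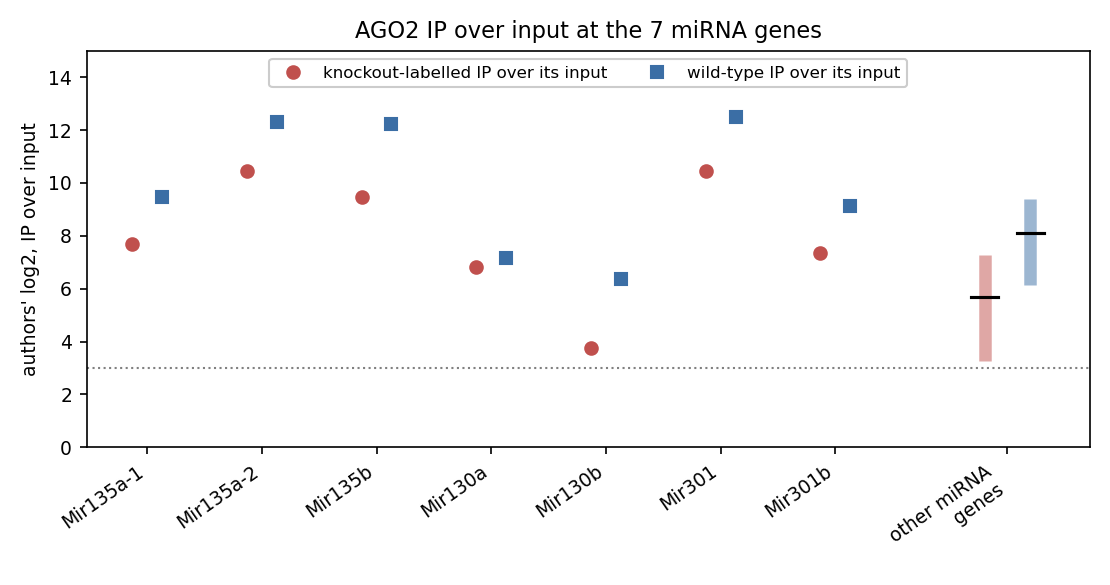
Log2 of IP over input (vertical axis, the authors' score) for each of the 7 genes, knockout-labelled library as circles on the left and wild-type library as squares on the right, with the quartiles (bars) and median (black line) of the other miRNA genes at the far right and a dotted line at the limit of 3. Mir301 and Mir135a-2 reach 10.45 in the knockout-labelled library and over 12 in the wild-type library, and Mir130b is lowest in both.

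A cluster was counted as enriched at a -log10 p and a log2 of at least 3. Enriched clusters were found at 6 of 7 members in the knockout-labelled library, against 68.7% of 339 miRNA genes and 3.08% of all clusters, and at 7 of 7 in the wild-type library, against 89.1% of 312 miRNA genes and 24.1% of all clusters. The exception was Mir130b in the knockout-labelled library, with a -log10 p of 2.51 from 7 reads. The median log2 over input of the 7 was 7.69 in the knockout-labelled library, beside 5.69 over 332 other miRNA genes, and 9.47 in the wild-type library, beside 8.09 over 305 others. By family, the 3 miR-135 genes had medians of 9.46 in the knockout-labelled library and 12.22 in the wild-type library, and the 4 miR-130/miR-301 genes had 7.09 and 8.15.

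All 7 members had a lower log2 over input in the knockout-labelled library. The other miRNA genes were lower there too by their median, at 5.69 over 332 genes against 8.09 over 305 in the wild-type library. The lower level is thus not particular to the 7. The difference of the members, knockout-labelled minus wild type, ran from -2.76 at Mir135b to -0.33 at Mir130a. A gene with equal IP counts and equal input counts in both pairs takes -1.72. The knockout-labelled IP was 2.28 times deeper, so equal counts are a lower signal per depth there. The value of -1.72 thus does not mark an absence of difference. Mir135a-1 (-1.78), Mir301b (-1.79) and Mir135a-2 (-1.86) lay within 0.2 of -1.72. The input count in the score was 1 at each member, apart from 2 at Mir135b in the knockout-labelled pair and 2 at Mir130a in the wild-type pair. These are the genes at both ends of the range. The values over input of the 7 are thus nearly IP counts on a fixed scale.

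The denominators of these scores hold an added read. At 93 regions with the same ends in the knockout-labelled file and the deposited comparison (3 to 432 reads), the comparison's knockout-labelled count exceeded the IP reads by exactly 1 in 93 of 93. Whether the inputs were treated in the same way could not be read from the files, so a listed input count of 1 may stand for no read.

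The clusters sat on one arm of each hairpin, on the 5' side at the miR-135 genes and on the 3' side at the miR-130/miR-301 genes, as the plot along the hairpins shows. At Mir301 they ran from 2 bases before miR-301a-3p to 1 base past its end in both libraries. At Mir135a-2 they covered all 23 bases of miR-135a-5p and began 2 bases before it in both. At Mir130a they covered 20 of the 22 bases of miR-130a-3p in both libraries. At Mir130b they covered 20 bases of miR-130b-3p in the knockout-labelled library and 21 in the wild-type library. The listed opposite arms of Mir135b, Mir135a-2, Mir130a, Mir130b, Mir301 and Mir301b carried 0 clusters in either library.

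Mir135a-1 was the exception, with a cluster on both arms. On miR-135a-1-3p it had 6 reads in the knockout-labelled IP (log2 over input 3.52, not enriched) and 7 in the wild-type IP (5.47, enriched). That is 5.26% of the reads on its arms in the knockout-labelled IP (1.96 to 11.1) and 5.88% in the wild-type IP (2.40 to 11.7), intervals that overlap almost wholly. Mir135a-2, with several times the reads, had no cluster on its opposite arm. Most hairpins were cut into abutting clusters that hold the same or nearly the same reads. Mir301 had 2 in each library with 728 reads each in the knockout-labelled IP and 908 each in the wild-type IP, so the clusters of a gene are not separate measurements. Mir135b also had a wild-type cluster of a single base with 7 reads just past its main ones.

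**Figure D2:**
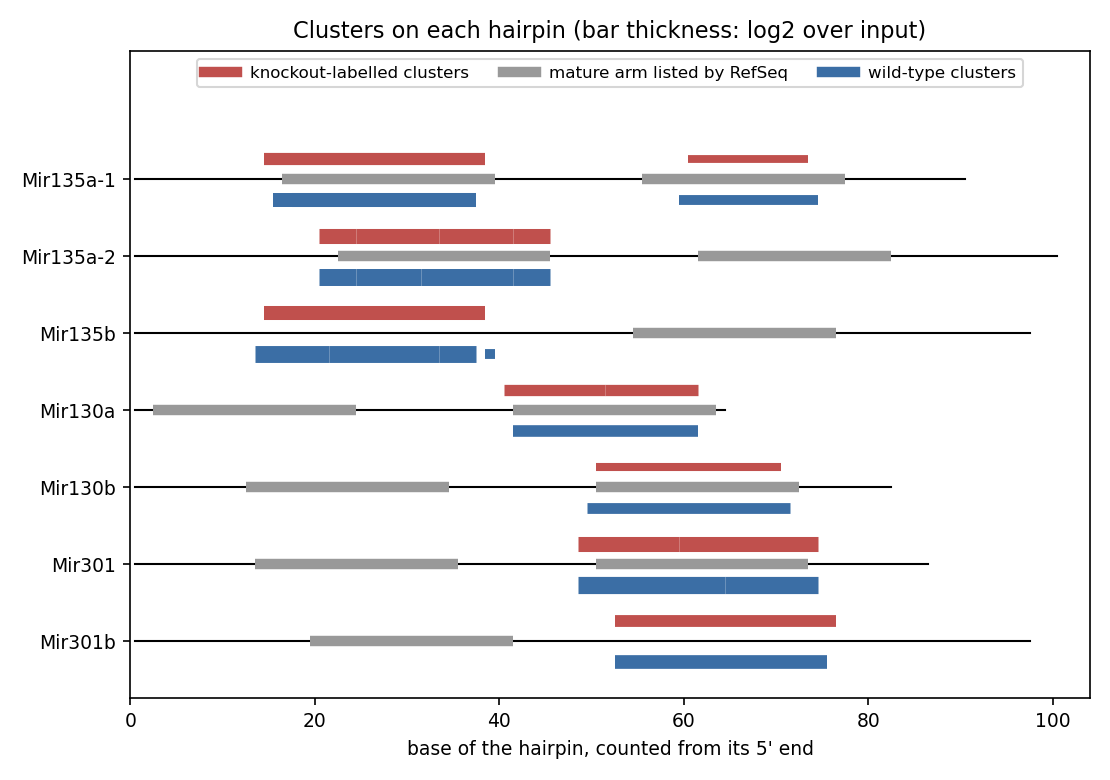
Each hairpin from its 5' end (horizontal axis, bases) with the mature arms listed by RefSeq in grey, the clusters of the knockout-labelled library above and those of the wild-type library below, bar thickness rising with log2 over input. Clusters lie on the 5' side of the miR-135 hairpins and on the 3' side of the miR-130/miR-301 hairpins, and Mir135a-1 alone has one on both arms.

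The split of reads between genes that share a strand or a locus differed little between libraries. Of the reads on Mir135a-1 and Mir135a-2, Mir135a-1 held 12.9% in the knockout-labelled IP (10.7 to 15.4) and 12.3% in the wild-type IP (10.3 to 14.6). As both give the identical miR-135a-5p, and how reads that fit several places were handled is not given in the sources used here, the split between these genes is uncertain and their sum is the firmer value. At the shared locus on chromosome 16, Mir130b held 7.61% of the reads of Mir130b and Mir301b in the knockout-labelled IP (3.11 to 15.1) and 12.7% in the wild-type IP (6.96 to 20.8). These intervals overlap too.

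Within the 7 genes, the intervals of a gene's share of the reads overlapped between libraries at all but Mir301. Genes with few reads have wide intervals that overlap easily, and how often those of other miRNA genes overlap was not computed. Mir301 had 29.7% of the 2450 reads in the knockout-labelled IP (27.9 to 31.6) and 33.4% of the 2717 in the wild-type IP (31.6 to 35.2), intervals that lie next to each other. Mir135a-2 held 29.7% in the knockout-labelled IP and 29.3% in the wild-type IP, and Mir135b 30.0% and 27.7%. Mir130a held 2.41% in the knockout-labelled IP (1.84 to 3.10) and 1.66% in the wild-type IP (1.21 to 2.21). The miR-135 family as a whole held 64.1% in the knockout-labelled IP (62.2 to 66.0) and 61.2% in the wild-type IP (59.3 to 63.0). Shares need no depth scaling, but they add up to 100% by construction, so a higher share of one gene lowers the others.

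**Figure D3:**
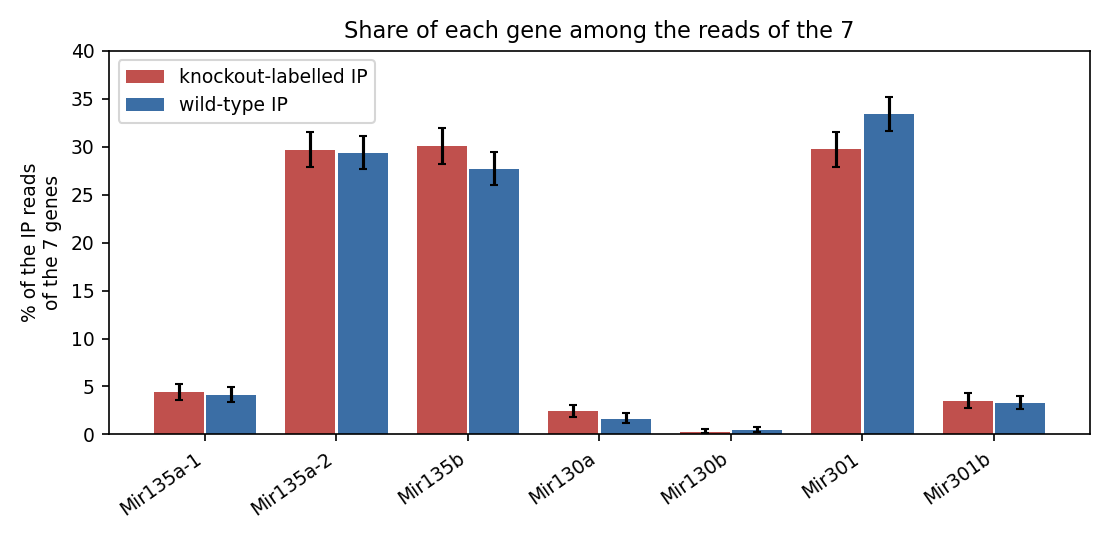
Share of each gene in the IP reads of the 7 (vertical axis, percent), knockout-labelled IP on the left and wild-type IP on the right of each pair, with exact 95% intervals. Mir135a-2, Mir135b and Mir301 each hold between 27.7% and 33.4%, and the intervals of Mir301 alone do not overlap.

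All 7 members had a log2 above 0 in the authors' deposited table of the wild-type IP over the knockout-labelled IP, before any centring. Mir301 had 1.50 (1.36 to 1.65) in the authors' deposited table. Mir135a-2 had 1.32 (1.17 to 1.47), Mir301b 1.24 (0.79 to 1.68), Mir135a-1 1.23 (0.83 to 1.62) and Mir135b 1.22 (1.07 to 1.37) in the authors' deposited table. Equal counts in both IPs take 1.19 on this scale, because the knockout-labelled IP was deeper, and the intervals of the last 4 genes all contain it. Equal counts are a lower signal per depth in the deeper IP, so 1.19 does not mark an absence of difference.

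The 2 genes with few reads lay at the ends of the range. In the authors' deposited table Mir130b had 1.89 (0.51 to 3.37) and Mir130a 0.77 (0.18 to 1.35). Both intervals also contain the value of equal counts. The interval of Mir130b spans the values of the other 6 members. A log2 of at least 1 with a -log10 p of at least 3 in the authors' deposited table was met by 5 of 7 members, against 3.39% of all regions, 64.1% of 312 miRNA genes, 79.8% of the 242 miRNA genes with 20 or more reads and 8.93% of the 3134 regions of that depth elsewhere. The share of the members is thus near that of miRNA genes in general. Mir130a (-log10 p 2.09) and Mir130b (2.41) missed the limit in the authors' deposited table. The score of 400 listed there for Mir301 was not met by its reads, which give 106.

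The sign depends on what the log2 is set against. The median of the 7 in the authors' deposited table was 1.24, beside 1.52 over 235 other miRNA genes with 20 or more reads and 0.38 over 3134 regions of that depth outside miRNA genes. Relative to 0.38 all 7 stayed above 0, relative to the other miRNA genes all but Mir130b fell below 0, and relative to the median of all 46862 regions, 2.77, all 7 fell below 0. The value of 2.77 is also the upper quartile of all regions, which had a median of 4 wild-type reads where reads were recovered. It is thus a level of regions with few reads. Of the 46862 regions, 46799 have the ends of wild-type clusters, so the list was drawn almost wholly from the wild-type IP. By log2 in the authors' deposited table the members ranked 57 (Mir130b), 125 (Mir301), 162 (Mir135a-2), 178 (Mir301b), 182 (Mir135a-1), 183 (Mir135b) and 232 (Mir130a) of 242 miRNA genes.

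**Figure D4:**
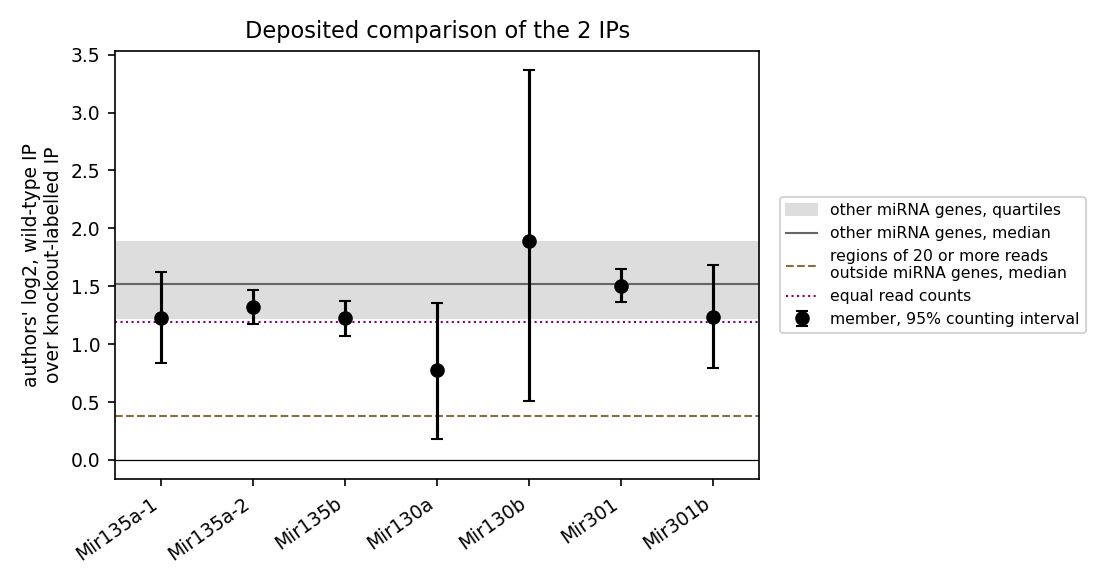
Log2 of the wild-type IP over the knockout-labelled IP in the authors' deposited table (vertical axis) for each gene, with exact 95% counting intervals, beside the median and quartiles of the other miRNA genes, the median over deep regions (20 or more reads) that lie outside miRNA genes, and the value of equal counts. All 7 points lie above 0.38, and 6 lie below the median of 1.52 of the other miRNA genes.

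The miRNA gene most like each member was taken as the nearest in the 3 log2 values together, among 279 genes with all 3. For both Mir301 (distance 0.14) and Mir135a-2 (0.30) it was Mirlet7i, with a log2 over input of 10.56 in the knockout-labelled library and 12.55 in the wild-type library. Mir135b was nearest to Mir126a (0.23), a miRNA of endothelial cells, Mir135a-1 to Mir328 (0.14) and Mir301b to Mir186 (0.09). Mir130b was nearest to Mir449c (0.33) and Mir130a to Mir382 (0.55), the largest distance of the 7. Likeness over 3 values that share libraries is a description of level only.

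The host transcripts carried few reads beside the hairpins. Rmst had 16 clusters outside the miRNA in the knockout-labelled IP and 2 in the wild-type IP, none enriched. Lemd1 had 6 in the knockout-labelled IP and 3 in the wild-type IP, and D030055H07Rik 1 and 2, none enriched. Ska2 had 0 in the knockout-labelled IP and 4 in the wild-type IP, of which a coding cluster of 5 reads was enriched (log2 over input 3.99). On 2610318N02Rik, host of Mir130b and Mir301b, neither library had a cluster outside the hairpins.

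To see where the seeds could pair, sites were sought in 3' UTR clusters on the sense strand only. A site of miR-130/miR-301 was TTGCACT or TGCACTA, and a site of miR-135 was AAGCCAT or AGCCATA, which may overlap as an 8mer. All miRNAs of one seed share these sites, so a site names a family and not a gene. In the knockout-labelled library, 33 of 959 enriched 3' UTR clusters held a miR-130/miR-301 site (3.44%, 2.38 to 4.80), against 124 of 9725 clusters that were not enriched (1.28%, 1.06 to 1.52). In the wild-type library, 69 of 3190 enriched clusters did (2.16%, 1.69 to 2.73), against 51 of 5407 (0.943%, 0.703 to 1.24). In each library the intervals of enriched and other clusters do not overlap, before any scaling to cluster length. With 8mers only they do overlap in the knockout-labelled library, at 6 of 959 enriched clusters (0.626%, 0.230 to 1.36) against 30 of 9725 others (0.308%, 0.208 to 0.440).

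Enriched clusters were also longer, with a median of 71 against 45 bases in the knockout-labelled library and 51 against 29 in the wild-type library. Scaled to the bases covered (per 10 kb), clusters with a miR-130/miR-301 site numbered 4.70 among enriched and 2.80 among other clusters in the knockout-labelled library, and 4.13 and 2.92 in the wild-type library. No intervals were computed for these densities. By the ratio of these densities this seed ranked 105 of 1234 mouse miRNA seeds in the knockout-labelled library and 109 of 637 in the wild-type library, seeds being counted where 20 or more clusters that were not enriched held a site.

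Per base, sites of miR-135 were not denser in enriched clusters than in the others at this definition. They lay in 12 of 959 enriched clusters of the knockout-labelled library (1.25%, 0.648 to 2.18), against 79 of 9725 others (0.812%, 0.644 to 1.01). In the wild-type library they lay in 33 of 3190 (1.03%, 0.713 to 1.45), against 48 of 5407 (0.888%, 0.655 to 1.18). The intervals overlap in both libraries. Per 10 kb the values were 1.71 among enriched and 1.79 among other clusters in the knockout-labelled library, and 1.97 and 2.74 in the wild-type library, with ranks of 648 of 1234 and 539 of 637.

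**Figure D5:**
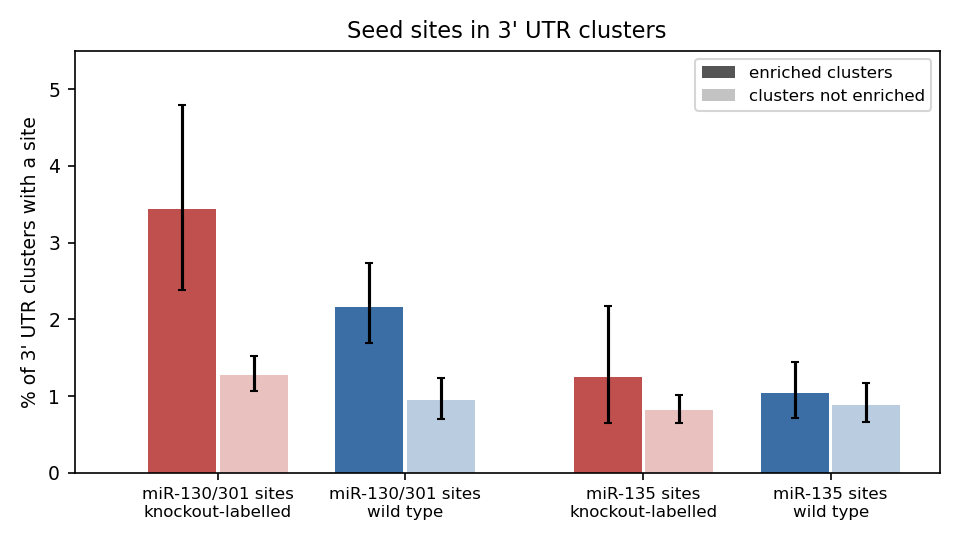
Share of 3' UTR clusters with a seed site (vertical axis, percent, exact 95% intervals) for both families, knockout-labelled library in red and wild-type library in blue, enriched clusters dark and the others pale. The miR-130/miR-301 share is 3.44% against 1.28% in the knockout-labelled library and 2.16% against 0.943% in the wild-type library, and the miR-135 intervals overlap. Shares are not scaled to cluster length.

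The sites below are those of enriched clusters with high scores in at least 1 library, given so that the match to the seeds can be read. They are from the GRCm38.p6 genome, on the sense strand of the transcript, with the site in capitals. The first 3 are miR-130/miR-301 sites and the last 4 miR-135 sites.
Baz2a (chr10:128128277-128128296, plus strand): aaattacgggtacTTGCACT
Dicer1 (chr12:104690353-104690372, minus strand): gaagtttaattttTTGCACT
Zfp451 (chr1:33798791-33798811, minus strand): atcacctgtacaaTTGCACTA
Ankrd52 (chr10:128393708-128393727, plus strand): ccgtggccccctgAGCCATA
Scd1 (chr19:44397174-44397193, minus strand): gagagagagaggtAGCCATA
Dyrk1b (chr7:28186939-28186959, plus strand): ggggcccctcctgAAGCCATA
Unc13a (chr8:71629281-71629301, minus strand): cctgcccctggaaAAGCCATA

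Among miR-130/miR-301 sites, Dynll2, a dynein light chain gene, scored highest in the knockout-labelled library, with 22 reads there (log2 over input 4.40). An enriched wild-type cluster overlapped it but covered 4 of the 7 bases of the site. Baz2a, a chromatin remodelling subunit gene, had 16 reads in the knockout-labelled library (4.94) and 17 in the wild-type library (6.75), where it scored highest. Its site lay whole inside both clusters, and both were enriched with nearly the same reads.

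Some of the named miR-130/miR-301 sites lay in an enriched cluster of one library only. The clusters of Map3k9, a kinase gene, with 18 reads (log2 over input 4.11), and of Ncdn, which encodes neurochondrin, with 16 reads (4.94), in the knockout-labelled library had no wild-type cluster over them. Dmtn, an actin-binding protein gene, had 10 reads in the knockout-labelled library (2.68, not enriched) and 19 in the wild-type library (4.91, enriched). Ppp1r9a, which encodes neurabin of synaptic spines, had 32 reads in the knockout-labelled library (1.77, not enriched) and 16 in the wild-type library (5.08, enriched). Fermt2, with 13 reads in the knockout-labelled library (4.64) and 16 in the wild-type library (6.66), had its site whole in an enriched cluster of both. So did Atl3, with 11 reads in the knockout-labelled library (3.40) and 15 in the wild-type library (6.57). At Zfp451, an enriched cluster of 17 reads in the knockout-labelled library (3.44) held the TTGCACT of the 8mer and one of 15 reads in the wild-type library (6.57) held the whole 8mer. In all, 21 of the 33 knockout-labelled clusters (63.6%) had a site whole inside an enriched wild-type cluster, and 21 of the 69 wild-type clusters (30.4%) had one inside an enriched knockout-labelled cluster. Enriched 3' UTR clusters numbered 959 in the knockout-labelled library and 3190 in the wild-type library. The overlap over all of them was not computed, so these shares are not set against a background.

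Among miR-135 sites, Ankrd52, which encodes a regulatory subunit of protein phosphatase 6, scored highest in the knockout-labelled library, with 26 reads there (log2 over input 5.64). An enriched wild-type cluster overlapped it but covered 4 of the 7 bases of the site. Scd1, a fatty acid desaturase gene, had 18 reads in the knockout-labelled library (4.11) and 19 in the wild-type library (6.91), and its site lay whole in both enriched clusters. Dyrk1b, a kinase gene with an 8mer, had 6 reads at the site in the knockout-labelled library (2.52, not enriched) and 19 in the wild-type library (6.91, enriched). Unc13a, a synaptic vesicle priming gene with an 8mer, had 15 reads in the wild-type library (6.57), and the enriched knockout-labelled cluster that overlapped it covered 4 of the 8 bases.

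Lmbr1l and Dock9 also had a miR-135 site whole in an enriched cluster of both libraries. Lmbr1l had 20 reads in the knockout-labelled library (log2 over input 5.26) and 6 in the wild-type library (5.25), and Dock9 had 13 (4.64) and 7 (5.47). At Aldh4a1, with 15 reads in the knockout-labelled library (4.85), the overlapping wild-type cluster covered 2 of the 7 bases of the site. Grik3, a kainate receptor gene, had 35 reads in the knockout-labelled library (3.07) and no wild-type cluster, and Setd5 had 9 reads in the wild-type library (5.83) and no knockout-labelled cluster. Myc, a transcription factor gene, had 13 reads in the wild-type library (6.36), and the knockout-labelled cluster that overlapped it did not reach the site. Shisa7, which encodes an auxiliary subunit of GABA-A receptors, had 6 reads in the knockout-labelled library (3.52, not enriched) and 13 in the wild-type library (5.36, enriched). In all, 3 of the 12 knockout-labelled clusters (25%) had a site whole inside an enriched wild-type cluster, and 3 of the 33 wild-type clusters (9.09%) had one inside an enriched knockout-labelled cluster. Here too the overlap over all enriched 3' UTR clusters was not computed, and the wild-type library had more of them.

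Reported targets of the families were looked at as lists. Of 24 listed miR-130/miR-301 targets, 12 had a 3' UTR cluster in the knockout-labelled library and 6 of these an enriched one, against 16.1% of 4537 genes with such clusters. In the wild-type library 9 had a cluster and 6 an enriched one, against 51.8% of 3721 genes. A cluster with a family site was found at 4 of the 12 in the knockout-labelled library, against 3.39% of genes, and at 3 of the 9 in the wild-type library, against 3.20%. The list was made of genes reported as targets, so sites in their 3' UTRs are part of how it was chosen.

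Dicer1, which encodes the enzyme that cuts miRNA hairpins, had an enriched cluster over a miR-130/miR-301 site in both libraries, with 18 reads in the knockout-labelled library (log2 over input 4.11) and 13 in the wild-type library (6.36). Tgfbr2, a TGF-beta receptor gene, had 4 reads at its site in the knockout-labelled library (2.94, not enriched) and 5 in the wild-type library (4.99, enriched). Tsc1, a growth inhibitor gene, had 3 reads at a site in the knockout-labelled library (2.52, not enriched) and no cluster with a site in the wild-type library. Tgfbr1, Abca1, Smad5, Nlk and Tnrc6a had enriched clusters in at least 1 library, none with a site in it.

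Of 20 listed miR-135 targets, 11 had a 3' UTR cluster in the knockout-labelled library, 5 of them enriched, against 16.1% of 4537 genes. In the wild-type library 11 had one, 8 of them enriched, against 51.8% of 3721 genes. A site in a cluster was found at 2 of the 11 in the knockout-labelled library, against 1.96% of genes, and at 1 of the 11 in the wild-type library, against 2.07%. They belong to complexins, which clamp and promote synaptic vesicle fusion. Cplx1 had a site cluster of 16 reads in the knockout-labelled library (log2 over input 3.35, enriched) and of 4 reads in the wild-type library (4.66, not enriched). Cplx2 had 2 site clusters of 5 and 3 reads in the knockout-labelled library, neither enriched. Apc, Lats2, Foxo1, Kif5c, Smad5, Hif1an and Tgfbr1 had enriched clusters in at least 1 library, none with a site.

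Both target lists had a median below that of all genes in the authors' deposited table, without centring. The median over genes was 2.04 for 17 listed miR-130/miR-301 targets and 1.77 for 13 listed miR-135 targets, beside 2.19 over 6768 genes in the authors' deposited table. These targets ranged from 0.38 to 3.14 (miR-130/miR-301) and from -0.23 to 3.51 (miR-135) in the authors' deposited table. Regions with few reads run high there, with a median of 2.77 over all regions and 0.38 over those of 20 or more reads outside miRNA genes. Nearly all of these regions have the ends of wild-type clusters. Read depth was not matched between the lists and all genes. Higher in wild type at the limits given above were regions of 2 of the 17 miR-130/miR-301 targets and 0 of the 13 miR-135 targets, against 8.26% of the 6768 genes in the authors' deposited table. One was Tnrc6a, a scaffold of the silencing complex, whose 3' UTR region, with 7 knockout-labelled reads (the added one included) and 20 wild-type reads, stood at 2.70 in the authors' deposited table.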

How the data were processed

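AGO2 IPs and inputs of 2 genotypes are labelled, 4 libraries in all. Processed files of both IPs and 1 table of the series were used. The inputs enter only through the scores. Per the labels' protocols and the submitters' processing notes, reads were trimmed with Cutadapt 1.15, reads on repeats were removed, and the rest were mapped to mm10 with STAR 2.6.0c. Duplicates were removed with UMI tools 5.2 and clusters called with CLIPper 1.4, per the labels' protocols. Each deposited file lists regions with a -log10 p of at most 400 and a log2 of IP over input as computed by the authors. The highest score under 400 is 306 for the knockout-labelled IP, 323 for the wild-type IP and 88.2 for the deposited comparison. A score of 400 thus stands apart from the scores below it and is not a plain cap. In the series table the log2 sets one IP over the other. How that table was made is not given in the sources used here. In all, 46799 of its 46862 regions have the ends of wild-type clusters, and its numerator matched the wild-type reads at 42615 of 42615 regions, so wild type is its numerator.

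Reads were recovered as the whole numbers that meet both scores (p within 1%), which was tested on 3000 simulated regions per table. It gave the counts of 100% of those with a score between 0 and 400 (2931, 2854 and 2932 regions for the knockout-labelled, wild-type and series tables). The simulated scores were made with the same formula that the recovery inverts. They therefore cannot show how the authors computed theirs. Scores of 0 or 400 leave only a ratio. Each gene is represented by its region of highest -log10 p. Genes and 3' UTRs are GENCODE M21, read at a region's midpoint. All 1005 RefSeq hairpins compared equalled the genome. Python 3.11.15, pandas 2.3.3, scipy 1.17.1 and pysam 0.24.0 were used. With 1 library per genotype no test was made. The genes named are the 7 members, their hosts, the nearest miRNA gene of each, up to 6 genes per family and library by score among enriched clusters with a site, and listed targets with enriched clusters or sites. The members, lists, limits and sites were chosen with earlier results of these data known. Some genes that the rule names are not reported here.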

Additional observations from a re-analysis of the deposited data

How the results depend on the processing

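Members with an enriched cluster stayed at 6 in the knockout-labelled library and 7 in the wild-type library at limits of 5 and 4 and with most of the cluster required inside the gene. They numbered 4 and 5 where a listed mature arm had to be overlapped, as the sequence table lists no main arm of Mir135b and Mir301b. The median over input ranged from 7.35 to 7.69 in the knockout-labelled library and 9.14 to 9.47 in the wild-type library. The deposited comparison depended on its scale. Members higher in wild type numbered 0 at limits of 5 and 2, 1 after centring on the deep regions (20 or more reads) that lie outside miRNA genes, and 0 after centring on the other miRNA genes, an alternative chosen after seeing the data. The median of the 7 turned to -1.54 when centred on all regions and -0.28 on the other miRNA genes. Centred on all regions, Mir135a-1 had -1.55, Mir135a-2 -1.45, Mir135b -1.55, Mir130a -2, Mir130b -0.88, Mir301 -1.27 and Mir301b -1.54. Centred on the other miRNA genes, Mir135a-1 had -0.30, Mir135a-2 -0.20, Mir135b -0.30, Mir130a -0.75, Mir301 -0.017 and Mir301b -0.28. These follow from the value subtracted, and the median of all regions is a level of regions with few reads. Taking off the added read, also chosen after seeing the data, changed no call.

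The miR-130/miR-301 share of enriched 3' UTR clusters became 6.78% with 6mers and 0.626% with 8mers only in the knockout-labelled library, and 4.83%, 0.627% and, with 20 bases added on each side, 2.79% in the wild-type library. The miR-135 share became 2.50% and 0.313% in the knockout-labelled library, and 1.79%, 0.219% and 1.66% in the wild-type library. More or fewer letters were searched in each. The ratio of site density in enriched over other clusters for miR-130/miR-301, 1.68 in the knockout-labelled and 1.41 in the wild-type library, became 1.42 and 1.38 with 6mers, 1.26 and 2.99 with 8mers only, and 1.60 and 1.30 with 20 bases added. For miR-135, 0.956 and 0.719 became 0.939 and 0.784, 0.994 and 0.915, and 1.03 and 0.925, so with 20 bases added the knockout-labelled ratio is above 1. No paired analysis was possible because each genotype has 1 IP library. Mir130b, with 7 and 13 reads, is limited by depth.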
